A study of Mus musculus with 16 samples.

Results

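The comparison set the lungs of bleomycin-exposed mice that had also received an adenoviral vector against the lungs of bleomycin-exposed mice that had received none. Adenoviral vectors are used to carry a gene into airway and alveolar cells, and both groups received one, so the comparison asks which genes differed with either of them. All 12 libraries of the comparison, of 16 in the series, were mouse lung exposed to bleomycin, a DNA-breaking drug used to scar the lung as a model of pulmonary fibrosis. There were 4 libraries with Ad-ATP12A, an adenovirus named for the non-gastric proton pump's alpha subunit, 4 with Ad-GFP, an adenovirus named for green fluorescent protein, and 4 with bleomycin and no vector. Each group held 2 libraries from each of 2 batches. The remaining 4 libraries were labelled control, with no treatment named, and entered the fit only to help estimate the spread and are given as levels. The members were chosen by their labels, not by a measured value. The labels give no strain, age, sex, bleomycin or vector dose, route, day of collection, transgene species or promoter. Nothing in them says whether each library came from its own animal; the p-values therefore describe the spread between libraries, and that spread may be technical. Libraries are written by batch and replicate, so b1r2 is replicate 2 of batch 1.

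Atp12a itself, left out of every count of shared genes, lay between 2.96 and 29.02 TPM in the Ad-ATP12A libraries and at no more than 0.20 TPM in all the others. TPM is transcript abundance per transcript length, scaled to the library's total; it keeps no read count, so the depth of a library is unknown. Sftpc, the surfactant gene that marks alveolar type 2 cells, was at 3965 TPM or more in every library, as the lung label has it. Each library had between 15537 and 16336 genes at 1 TPM or more. Xist, which is transcribed in female cells, was at 10 TPM or more in 3 Ad-ATP12A, 1 Ad-GFP, 1 bleomycin and 1 control library. Scgb1a1, the protein that club cells secrete in bulk, was under 1000 TPM in 1 Ad-GFP, 1 bleomycin and 1 control library, against 24870 TPM or more in every other library. Scgb3a2, another club cell secretoglobin, was not low with it: at 11745 TPM in the Ad-GFP, 4009 TPM in the bleomycin and 7861 TPM in the control library of the 3, it was the highest of its own group in each.

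Adenovirus enters cells through the coxsackievirus and adenovirus receptor and integrins, and its DNA is sensed inside the cell, which in many tissues induces interferons. Lymphocytes then recognise transduced cells, and T cells release interferon gamma, which induces the guanylate-binding and immunity-related GTPases and antigen presentation. Kininogens, which lead the genes described here, are plasma proteins made mainly by the liver; kallikreins cut them to release bradykinin, a peptide that widens vessels and makes them leak.

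Of 17003 genes tested, 2 passed the adjusted threshold of 0.05 between the 8 vector libraries and the 4 bleomycin libraries (0.0118% of genes). One was higher with vector (0.00588%) and one was lower (0.00588%). The gene that rose was Kng1, one of the 2 mouse kininogen genes, and the gene that fell was Asgr2, the minor subunit of the hepatic asialoglycoprotein receptor, a C-type lectin that binds glycoproteins stripped of sialic acid. Both moved in the same direction in each vector group and each batch, and both also passed when each vector group was tested alone. That last result depended on the setting: Kng1 passed in both groups' own tests in 21 of 31 alternatives and Asgr2 in 6 of 30, Kng1 passing in 27 with Ad-ATP12A and 21 with Ad-GFP, and Asgr2 in 7 with Ad-ATP12A and 12 with Ad-GFP. The test was limma with Benjamini-Hochberg adjustment over all genes tested, on log2(TPM + 1), with batch as a term. The third smallest adjusted p was 0.382. At an unadjusted p under 0.05 there were 399 genes (2.35%), 165 higher (0.97%) and 234 lower (1.38%) with vector, a smaller share than the 5% that an unadjusted threshold of 0.05 admits. Over all genes the median log2 fold change was -0.04. The median half-width of the 95% interval, unadjusted over genes, was 0.31. For a typical gene, changes smaller than about that could not be told from 0 even before adjustment. The adjusted threshold was stricter: Hpse, at a log2 fold change of 0.83, did not pass it (limma adjusted p = 0.382).

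Tested alone, Ad-GFP against bleomycin gave 2 genes (0.0118%), and Ad-ATP12A against bleomycin gave 4 (0.0235%). The additional Ad-ATP12A genes were Atp12a and the antibody segment Igkv4-72, which the naming rule passes over and which is named here because the count is small. These contrasts share the 4 bleomycin libraries, so they are not independent of each other. In 9 genes every vector library lay above every bleomycin library (0.0529% of genes), and in 20 every vector library lay below (0.118%). The number of genes that would separate in this way by chance was not worked out, so not overlapping is a description only. The 9 higher genes, listed whatever their test gave, were Kng1, Kng2, Chia1, Chil4, Clca1, Grk4, Pglyrp1, Fer1l6 and Taf9.

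Promoter sequences of the genes described next are shown because Kng2 and Kng1, and Mgl2 and Asgr2, are neighbours, and Chia1 and Chil4 belong to one family. The table holds 250 bases before and 50 after the start of each gene, from RefSeq on GRCm38.p6, which is not the build of the deposited values; 5 of 6 genes asked for matched, Kng1 being the other. Each is printed 5′ to 3′ on the gene's strand, with matches to 4 motifs in capitals, searched on both strands. They were the core of the TATA box (TATAAA), the CCAAT box, which on the opposite strand reads ATTGG, the core that STAT factors bind (TTCNNNGAA), and the form of that core with 4 free bases bound by STAT6. No match of one motif overlapped a match of another. The motifs were picked after results were known, and a match is a description and not a binding site.
Kng2, chr16:23029052-23029351, minus strand: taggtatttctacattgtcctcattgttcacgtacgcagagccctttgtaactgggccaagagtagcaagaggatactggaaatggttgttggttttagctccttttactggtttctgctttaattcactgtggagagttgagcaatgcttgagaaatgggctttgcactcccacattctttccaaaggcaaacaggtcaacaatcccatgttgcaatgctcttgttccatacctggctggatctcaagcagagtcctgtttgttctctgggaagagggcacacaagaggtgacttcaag
Asgr2, chr11:70092394-70092693, plus strand: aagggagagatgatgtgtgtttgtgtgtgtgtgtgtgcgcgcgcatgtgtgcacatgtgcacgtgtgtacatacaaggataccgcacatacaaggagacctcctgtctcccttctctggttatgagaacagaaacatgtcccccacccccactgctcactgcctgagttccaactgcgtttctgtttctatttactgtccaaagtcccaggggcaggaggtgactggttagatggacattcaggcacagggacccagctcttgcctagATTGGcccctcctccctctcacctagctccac
Mgl2, chr11:70130107-70130406, plus strand: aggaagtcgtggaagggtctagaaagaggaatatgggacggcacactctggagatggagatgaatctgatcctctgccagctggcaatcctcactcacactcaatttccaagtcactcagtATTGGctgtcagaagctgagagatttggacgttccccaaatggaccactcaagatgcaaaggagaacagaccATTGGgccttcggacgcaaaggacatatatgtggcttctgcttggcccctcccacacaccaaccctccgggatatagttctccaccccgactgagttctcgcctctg
Chia1, chr3:106113132-106113431, plus strand: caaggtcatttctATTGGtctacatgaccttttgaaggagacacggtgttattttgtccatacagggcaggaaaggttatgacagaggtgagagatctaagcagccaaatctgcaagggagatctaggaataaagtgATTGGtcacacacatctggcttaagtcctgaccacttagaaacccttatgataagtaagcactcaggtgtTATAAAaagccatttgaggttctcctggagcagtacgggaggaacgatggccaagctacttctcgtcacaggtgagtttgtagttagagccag
Chil4, chr3:106219430-106219729, minus strand: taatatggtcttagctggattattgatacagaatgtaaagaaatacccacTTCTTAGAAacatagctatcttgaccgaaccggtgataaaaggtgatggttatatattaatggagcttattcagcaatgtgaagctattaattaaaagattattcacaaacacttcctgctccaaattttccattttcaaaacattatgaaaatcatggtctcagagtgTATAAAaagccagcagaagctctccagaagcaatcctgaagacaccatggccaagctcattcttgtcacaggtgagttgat
TATAAA was found once each in Chia1 and Chil4, in a series of 32851 such promoters of which 13.6% held it. CCAAT was found in Asgr2, Mgl2 and Chia1, against 37.4% of all promoters. The STAT core was found in Chil4, against 8.3%, and the STAT6 form in none of the 5, against 6.95%. Kng2 held none of the 4.

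Kng1 (ENSMUSG00000022875, chromosome 16) was high in every vector library. It had 13.96, 4.93, 13.92 and 14.40 TPM in the Ad-ATP12A libraries and 10, 15.08, 11.95 and 4.23 TPM in the Ad-GFP libraries, against 0.48, 0.52, 0.33 and 0.54 TPM in the bleomycin libraries and 0.02, 0, 0.04 and 0 TPM in the controls. No vector library overlapped the bleomycin libraries, and the lowest vector values were 4.93 TPM in batch 1, with Ad-ATP12A, and 4.23 TPM in batch 2, with Ad-GFP. The log2 fold change was 2.93 (SE 0.289, 95% interval 2.31 to 3.55, limma adjusted p = 0.00132), and the group means stood 23.7-fold apart in TPM. Against bleomycin it was 3.03 in Ad-ATP12A lungs (limma adjusted p = 0.00518) and 2.84 in Ad-GFP lungs (limma adjusted p = 0.0113). Ad-ATP12A and Ad-GFP lungs differed from each other by 0.19 (95% interval -0.52 to 0.91), so the data bound but do not exclude a difference between the transgenes. It was 2.90 in batch 1 and 2.96 in batch 2, and 2.97 with a term for Xist (limma adjusted p = 0.00374). An exact two-sided permutation test within batch gave p = 0.00444, the smallest that 225 relabellings can give, unadjusted over genes. Without the controls in the fit, the limma adjusted p for Kng1 rose to 0.0457 with 3 group means and to 0.0178 with vector as 1 group. With 3 group means the vector groups' own tests then did not pass (limma adjusted p = 0.0696 with Ad-ATP12A and 0.133 with Ad-GFP). Kng1 met the filter of 1 TPM in 4 libraries only through the vector libraries, where it is high. Without that filter its limma adjusted p was 0.0108. The Ad-ATP12A test alone then passed (limma adjusted p = 0.0365) and the Ad-GFP test alone did not (limma adjusted p = 0.0768).

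The second kininogen gene, Kng2, did not pass the test on its own. It had 10.24, 4.48, 9.42 and 9.84 TPM in the Ad-ATP12A libraries and 5.30, 6.32, 7.54 and 8.93 TPM in the Ad-GFP libraries, against 1.29, 1.61, 2.79 and 3.38 TPM in the bleomycin libraries. Every vector library was above every bleomycin library, at a log2 fold change of 1.43 (95% interval 0.72 to 2.14, limma adjusted p = 1.00). The adjusted p was under the threshold in 3 alternative fits, the smallest being 0.0122 without control b1r1, where Kng2 stood at 3.60 TPM.

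Kng1 and Kng2 share much of their sequence, so reads can be assigned between them uncertainly. Of the 50-base windows in the annotated transcripts, 17.2% of those of Kng1 also occur in Kng2, and 19.4% of those of Kng2 in Kng1. The sum of both genes avoids that split, and was added after the data were seen. It ran from 9.41 to 24.24 TPM over the vector libraries and from 1.77 to 3.92 TPM over the bleomycin libraries, with means of 20.3 ± 7.27 TPM in Ad-ATP12A, 17.3 ± 3.77 TPM in Ad-GFP, 2.74 ± 0.975 TPM in bleomycin and 1.17 ± 1.65 TPM in control lungs (SD, n = 4 each). The groups did not overlap and the log2 difference was 2.38 (exact two-sided permutation test within batch, p = 0.00444). Each gene had already separated the groups, so the sum had to do so too, and its permutation p is no separate support. Fitted in place of Kng1 across all genes, the sum no longer passed (limma adjusted p = 0.0686). The call on Kng1 was also lost without the 3 libraries low in Scgb1a1 (limma log2 fold change 2.95, adjusted p = 0.0726), and in either batch alone (limma adjusted p = 0.196 in batch 1 and 0.162 in batch 2).

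**Figure D1:**
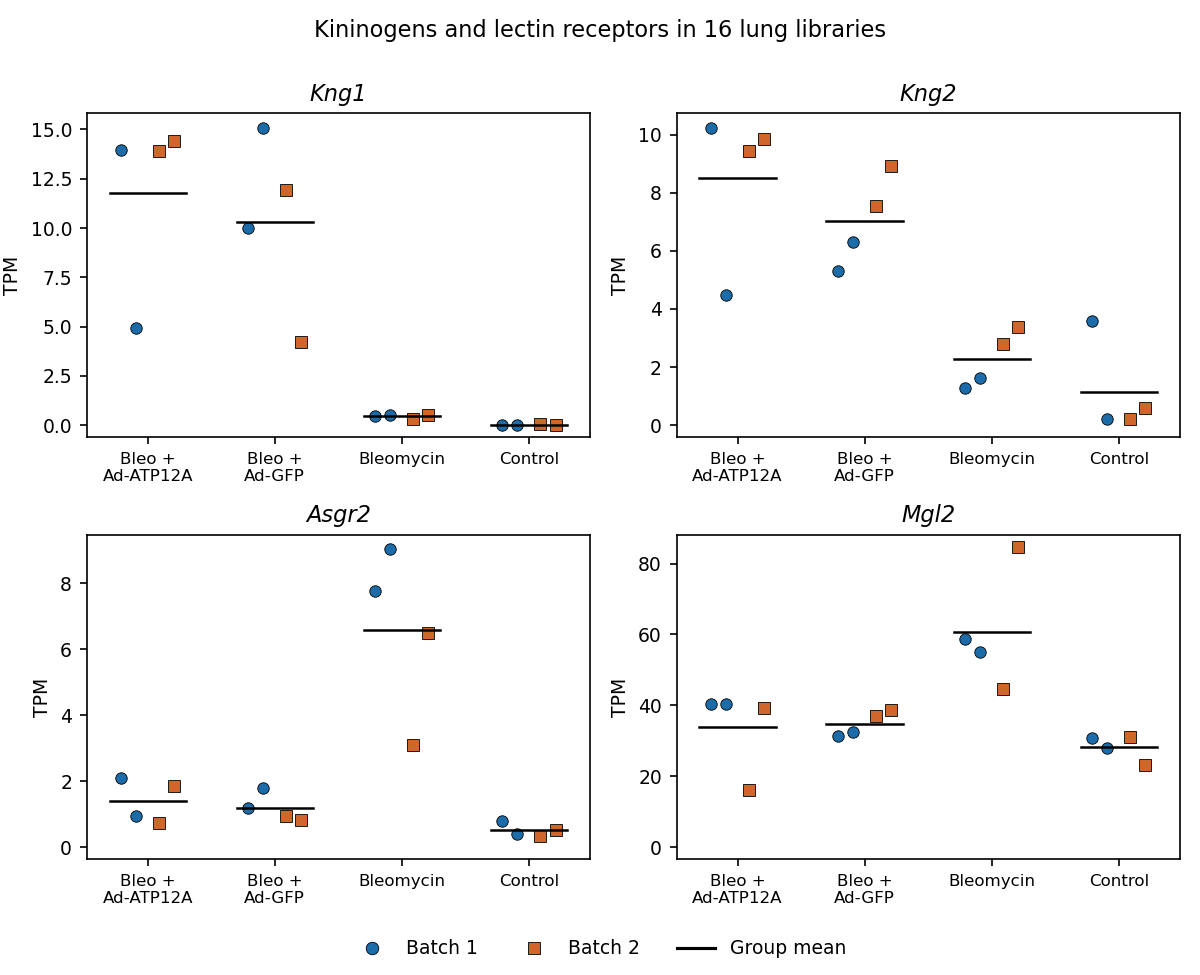
Level in TPM of Kng1, Kng2, Asgr2 and Mgl2 in each of 16 lung libraries, by group, with batch 1 as circles, batch 2 as squares and the group mean as a line. Kng1 lies between 4.23 and 15.08 TPM with either vector and at no more than 0.54 TPM with bleomycin alone; Asgr2 lies at no more than 2.09 TPM with vector and at 3.09 TPM or more with bleomycin alone.

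Kininogens are liver products, so liver genes were examined beside them. Albumin lay between 0.15 and 0.50 TPM in the vector libraries and between 0.31 and 0.78 TPM in the bleomycin libraries. The lipid carrier gene Apoa1 reached at most 0.29 TPM with vector, the thyroid hormone carrier gene Ttr at most 0.13 TPM, and Apoc3 was listed at 0 in all 16 libraries. The liver genes that flank the kininogens on chromosome 16, Ahsg and Fetub, had log2 fold changes of -0.09 and -0.14 and did not pass. Of the 12 protein-coding genes nearest Kng1 in RefSeq order, 10 were tested, and Kng2 alone had an unadjusted p under 0.05.

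Asgr2 (ENSMUSG00000040963, chromosome 11) was low in every vector library. It had 2.09, 0.95, 0.73 and 1.84 TPM in the Ad-ATP12A libraries and 1.18, 1.80, 0.94 and 0.82 TPM in the Ad-GFP libraries, against 7.76, 9.03, 3.09 and 6.49 TPM in the bleomycin libraries. The controls held 0.78, 0.40, 0.33 and 0.51 TPM, below the bleomycin libraries as well. The vector mean of 1.29 ± 0.533 TPM (SD, n = 8) therefore stood between the bleomycin mean of 6.59 ± 2.55 TPM and the control mean of 0.505 ± 0.198 TPM (SD, n = 4 each). The log2 fold change was -1.68 (SE 0.203, 95% interval -2.12 to -1.25, limma adjusted p = 0.00751), with -1.63 in Ad-ATP12A lungs (limma adjusted p = 0.0290) and -1.74 in Ad-GFP lungs (limma adjusted p = 0.0269). The vectors differed by 0.11 (95% interval -0.39 to 0.62), and the change was -1.93 in batch 1, -1.44 in batch 2 and -1.64 with a term for Xist (limma adjusted p = 0.0228). The exact two-sided permutation test within batch gave p = 0.00444.

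The Asgr2 call rested on the 4 bleomycin libraries. Leaving out bleomycin b1r1, b1r2 or b2r2 took the limma adjusted p to 0.0757, 0.0823 or 0.0551, and leaving out the 3 libraries low in Scgb1a1 took it to 0.428, with a log2 fold change of -1.55. It was also lost when the 12 bleomycin-exposed libraries were fitted alone with 3 group means (limma adjusted p = 0.0596), and in either batch alone (limma adjusted p = 0.196 in batch 1 and 0.575 in batch 2). In whole tissue, fewer cells of a type and less RNA per cell cannot be told apart.

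Mgl2, the next gene along and a galactose-binding lectin of macrophages and dendritic cells, had 40.38, 40.29, 16.14 and 39.23 TPM in the Ad-ATP12A libraries and 31.27, 32.54, 36.85 and 38.58 TPM in the Ad-GFP libraries, against 58.77, 55.01, 44.46 and 84.67 TPM in the bleomycin libraries. No library overlapped, but the log2 fold change of -0.81 (95% interval -1.29 to -0.33) did not pass (limma adjusted p = 1.00). Clec10a, its closest relative, and Asgr1, the major subunit of the receptor to which Asgr2 belongs, had log2 fold changes of 0.14 and 0.13. Of the 50-base transcript windows of Mgl2, 12.2% also occur in Clec10a, so reads could be split between those genes. All 12 protein-coding neighbours of Asgr2 were tested, and only Mgl2 and Dlg4, a synaptic scaffold gene at -0.24, had an unadjusted p under 0.05.

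The genes with the next smallest p are given as values, since none passed. Chia1, acidic mammalian chitinase, had 69.45, 130.80, 62.64 and 57.02 TPM in the Ad-ATP12A libraries and 163.28, 44.30, 137.92 and 77.42 TPM in the Ad-GFP libraries, against 29.70, 27.26, 32.37 and 22.56 TPM in the bleomycin libraries. The controls lay between 85.18 and 232.15 TPM, so bleomycin alone was the low group. Its log2 fold change was 1.57 (95% interval 0.84 to 2.30, limma adjusted p = 1.00).

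Chil4, a chitinase-like protein without chitinase activity that is made in type 2 inflammation, had 83.04, 31.79, 7.07 and 11.34 TPM in the Ad-ATP12A libraries and 69.52, 6.22, 6.60 and 19.79 TPM in the Ad-GFP libraries, against 0.91, 1.57, 0.26 and 0.75 TPM in the bleomycin libraries. Its log2 fold change was 3.44 (95% interval 1.77 to 5.10) and did not pass (limma adjusted p = 1.00), and control b1r2 reached 28.10 TPM. Of its 50-base transcript windows, 9.95% also occur in Chil3, so reads could be split between them. Clca1, a secreted protein of mucous airway cells, ran from 8.66 to 374.29 TPM with vector and from 1.56 to 7.39 TPM with bleomycin alone, at a log2 fold change of 3.90 (limma adjusted p = 1.00); control b1r2 held 111.79 TPM.

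**Figure D2:**
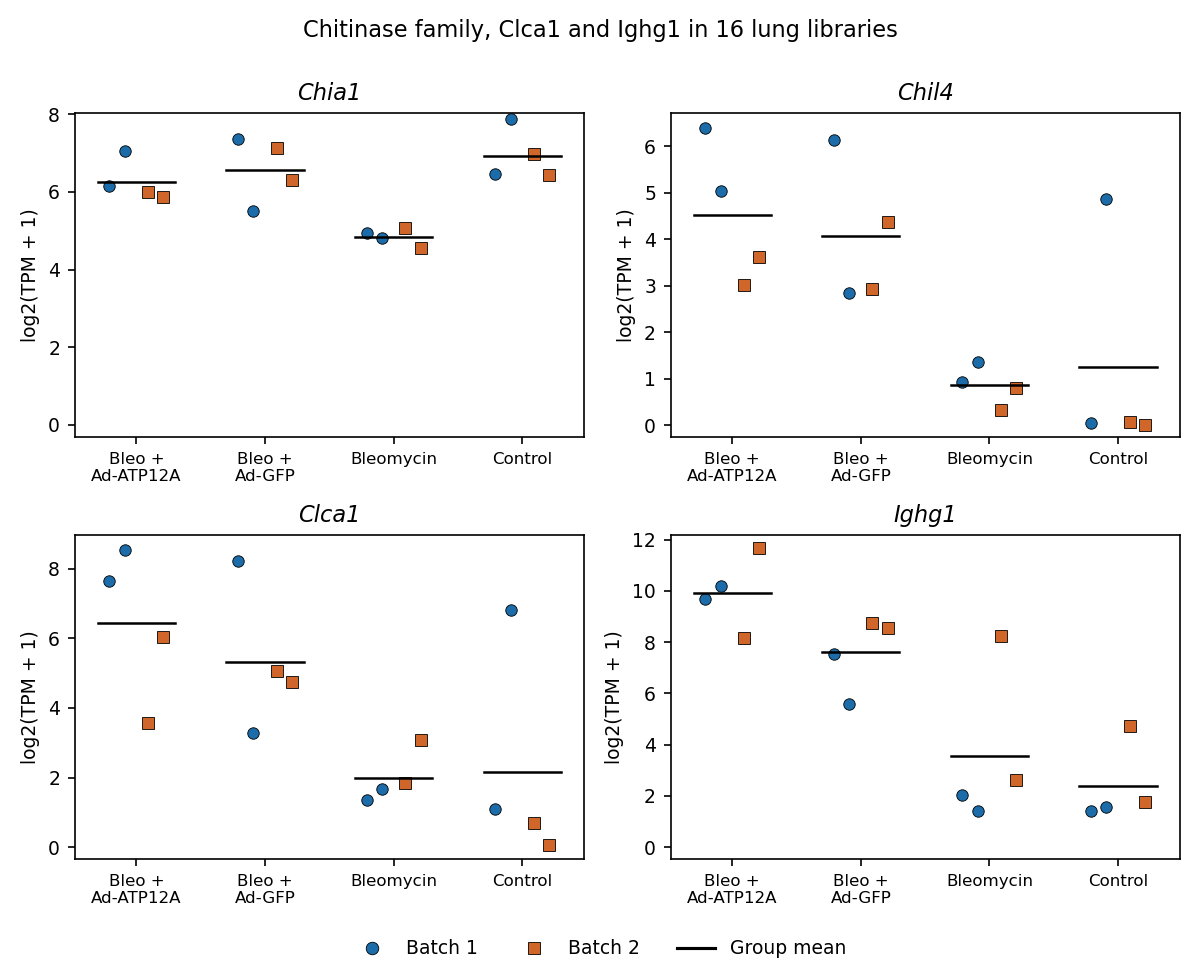
Level on the log2(TPM + 1) scale of Chia1, Chil4, Clca1 and Ighg1 in each of 16 lung libraries, by group, with batches as symbols and the group mean as a line. Chia1, Chil4 and Clca1 do not overlap between vector and bleomycin libraries, and 1 bleomycin library overlaps the vector libraries in Ighg1.

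Ighg1, the constant region of one IgG subclass, had 816.32, 1165.78, 288.94 and 3270.71 TPM in the Ad-ATP12A libraries and 187.19, 47.41, 427.02 and 375.13 TPM in the Ad-GFP libraries, against 3.09, 1.66, 299.35 and 5.09 TPM in the bleomycin libraries. Bleomycin b2r1 overlapped the vector libraries. The log2 fold change was 5.20 (95% interval 3.11 to 7.30, limma adjusted p = 0.455; exact two-sided permutation test within batch, p = 0.00889). It passed only where bleomycin b2r1 was left out, with array weights, or in batch 1 alone.

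Hpse, heparanase, which cuts heparan sulfate of the matrix, averaged 15.4 ± 7.49 TPM in Ad-ATP12A, 15.5 ± 3.99 TPM in Ad-GFP and 8.25 ± 3.001 TPM in bleomycin lungs (SD, n = 4 each), at a log2 fold change of 0.83 (95% interval 0.51 to 1.14, limma adjusted p = 0.382). Slpi, an inhibitor of neutrophil proteases, averaged 161 ± 89.6 TPM in Ad-ATP12A, 79.2 ± 13.6 TPM in Ad-GFP and 51.9 ± 21.1 TPM in bleomycin lungs (SD, n = 4 each). Scgb3a1, an airway secretoglobin, averaged 519 ± 266 TPM in Ad-ATP12A, 372 ± 216 TPM in Ad-GFP and 196 ± 36.8 TPM in bleomycin lungs, and stood higher by 1.67 (log2) in batch 1 and by 0.33 in batch 2. Ido1, which degrades tryptophan, was low throughout, averaging 2.53 ± 0.892 TPM with vector (SD, n = 8) and 1.29 ± 0.154 TPM with bleomycin alone (SD, n = 4). Grk4, a kinase of G protein-coupled receptors, differed little in size, at a log2 fold change of 0.36.

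Among the lower genes, Cxcl14, a chemokine made by epithelium and fibroblasts, averaged 80.7 ± 17.5 TPM in Ad-ATP12A, 80.04 ± 16.7 TPM in Ad-GFP and 118 ± 3.59 TPM in bleomycin lungs (SD, n = 4 each), while controls averaged 78.5 ± 11.1 TPM. Fcrls, a scavenger receptor-like protein of macrophages, averaged 13.7 ± 2.43 TPM with vector (SD, n = 8) and 30.4 ± 13.3 TPM with bleomycin alone (SD, n = 4). Dcstamp, which takes part in fusion of macrophage precursors, averaged 3.13 ± 1.63 TPM with vector and 10.6 ± 6.61 TPM with bleomycin alone. For Ccr2, the chemokine receptor of inflammatory monocytes, the means were 46.1 ± 9.22 TPM with vector and 74.7 ± 27.7 TPM with bleomycin alone. The remaining genes named by the rule were Pilrb2, Mucl1, Abcf3 and Ube4bos3, with log2 fold changes of -0.98, -1.45, -0.22 and -0.44, and none passed (limma adjusted p = 1.00 for each).

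**Figure D3:**
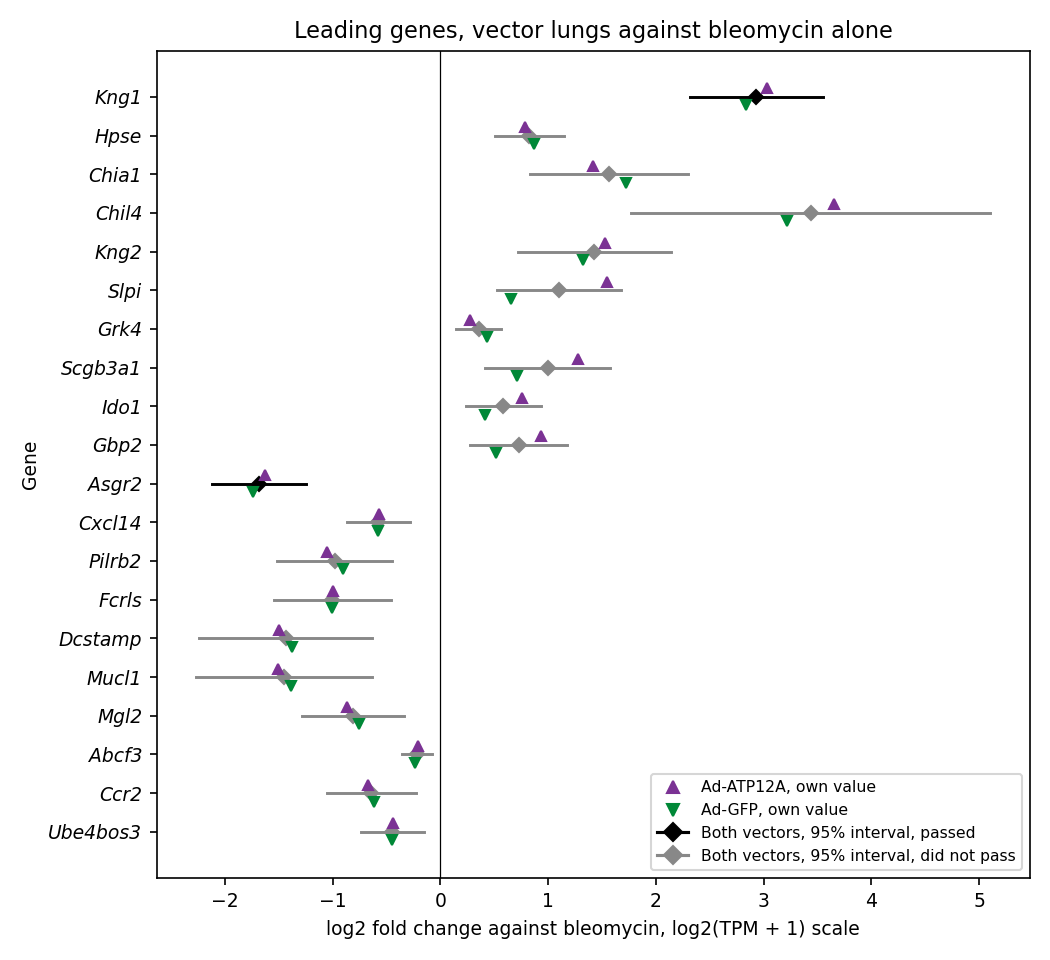
Log2 fold change against bleomycin alone of the genes named by the rule, with the pooled vector value as a diamond and its 95% interval as a line, and the Ad-ATP12A and Ad-GFP values as triangles. Kng1 at 2.93 and Asgr2 at -1.68, in black, are the genes that passed; the grey genes did not pass.

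Gene lists were described by counts and medians, without a test. In all, 58 lists were examined and 57 had a tested member; of the 688 distinct genes in them, Kng1 alone passed, and 56 lists had none that did. The 17 lists described in detail here were picked after all of the lists' values had been seen, so they are not a sample of the 58. Medians ran from -0.998, in the list of sex-linked genes (-2.64 in batch 1 and 0.84 in batch 2), to 1.42, in the liver list. That list had 2 of 8 members tested, Kng1 at 2.93 and Ahsg at -0.09, so its median is the midpoint of those values.

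The interferon gamma-induced GTPases stood higher with vector in all 16 members, at a median log2 fold change of 0.49 (all genes -0.04), and 8 of 16 had an unadjusted p under 0.05 against 0.97% of all genes in that direction. None passed after adjustment. Gbp2, a guanylate-binding protein, had 64.62, 60.82, 146.81 and 91.02 TPM in the Ad-ATP12A libraries and 48.55, 49.60, 51.45 and 130.28 TPM in the Ad-GFP libraries, against 41.17, 33.65, 43.57 and 62.16 TPM in the bleomycin libraries. The list's median was 0.65 in Ad-ATP12A lungs and 0.37 in Ad-GFP lungs, and 0.63 in batch 1 and 0.54 in batch 2. It was 0.54 without the 3 libraries low in Scgb1a1. The Ad-GFP value rested on 1 library: without Ad-GFP b2r2 the Ad-GFP median was 0.07.

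Genes of antigen presentation through MHC class I had a median of 0.23, with 3 of 13 at an unadjusted p under 0.05, led by Nlrc5, the activator of these genes, at 0.50, and by H2-D1 and Tap1. The class I median was 0.36 in batch 1 and 0.08 in batch 2. Genes of presentation through MHC class II, outside the 17 lists, did not rise. Their median was -0.18, with 0 of 8 positive, at 0.00 in batch 1 and -0.32 in batch 2. T cell activation and exhaustion genes had a median of 0.34, all 14 being positive, with 5 at an unadjusted p under 0.05, among them Ctla4 and Tigit. That median was 0.61 in Ad-ATP12A but 0.09 in Ad-GFP lungs, and 0.64 in batch 1 but 0.17 in batch 2. The T cell receptor complex had 0.10 (0 of 17), at 0.38 in Ad-ATP12A and -0.23 in Ad-GFP lungs and at 0.38 in batch 1 and -0.29 in batch 2, and 7 of 17 members had an unadjusted interaction p under 0.05. The median was -0.06 for cytotoxic T and NK cell genes (1 of 17, Xcl1). Type I interferon response genes had a median of 0.02 (0 of 22), and the genes of nucleic acid sensing had -0.01 (0 of 17 tested, of 18). Isg15 and Ifit1, which interferon induces strongly, had -0.02 (95% interval -0.69 to 0.64) and -0.04 (95% interval -0.55 to 0.47). The receptor and integrin genes that adenovirus uses had a median of 0.00 (0 of 8), Cxadr itself being at -0.09 (95% interval -0.41 to 0.24).

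Red blood cell genes were higher with vector in all 7 members, with a median of 0.96 and 5 at an unadjusted p under 0.05. Their summed level ran from 9247 to 39839 TPM in Ad-ATP12A, 10454 to 23906 TPM in Ad-GFP, 5789 to 14096 TPM in bleomycin and 16532 to 50992 TPM in control lungs, so the lowest sum was in a bleomycin lung, and the ranges overlapped. Club and secretory genes had a median of 0.33, with only 11 of 16 members positive. At an unadjusted p under 0.05, 4 of 16 were higher, against 0.97% of all genes in that direction. Among them were Reg3g, a secreted antibacterial lectin, and the mucins Muc5b and Muc5ac. The list's median was 0.47 in Ad-ATP12A and 0.16 in Ad-GFP lungs. It was 0.49 in batch 1 and -0.06 in batch 2, and 0.35 without the 3 libraries low in Scgb1a1. The parts of red blood cell and airway content in the other values were not tested.

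None of the collagen genes, which form the scar, passed. Their median was -0.18, with 0 of 21 at an unadjusted p under 0.05, and matrix glycoprotein and crosslinking genes had -0.17 (0 of 25). Within batches the collagen median was -0.77 in batch 1 and 0.42 in batch 2, and over both it was 0.04 without the 3 libraries low in Scgb1a1 and 0.03 with a term for Xist. The sex-linked genes were uneven within batches. Their mean log2(TPM + 1) in batch 1 was 1.46, 1.41, 1.48 and 3.64 with vector, against 3.74 and 3.67 with bleomycin alone. In batch 2 it was 3.79, 1.26, 3.99 and 4.03 with vector, against 1.68 and 4.01 with bleomycin alone. Whether sex had a part in the medians within batches was not tested. Col1a1 had 240.96, 180.70, 1190.95 and 669.55 TPM in the Ad-ATP12A libraries and 138.63, 605.32, 204.51 and 748.16 TPM in the Ad-GFP libraries, against 666.35, 502.14, 242.89 and 571.89 TPM in the bleomycin libraries. Vector and bleomycin libraries overlapped throughout, at a log2 fold change of -0.28 (95% interval -1.38 to 0.82). TGF-beta ligand and response genes had -0.17 (0 of 13).

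**Figure D4:**
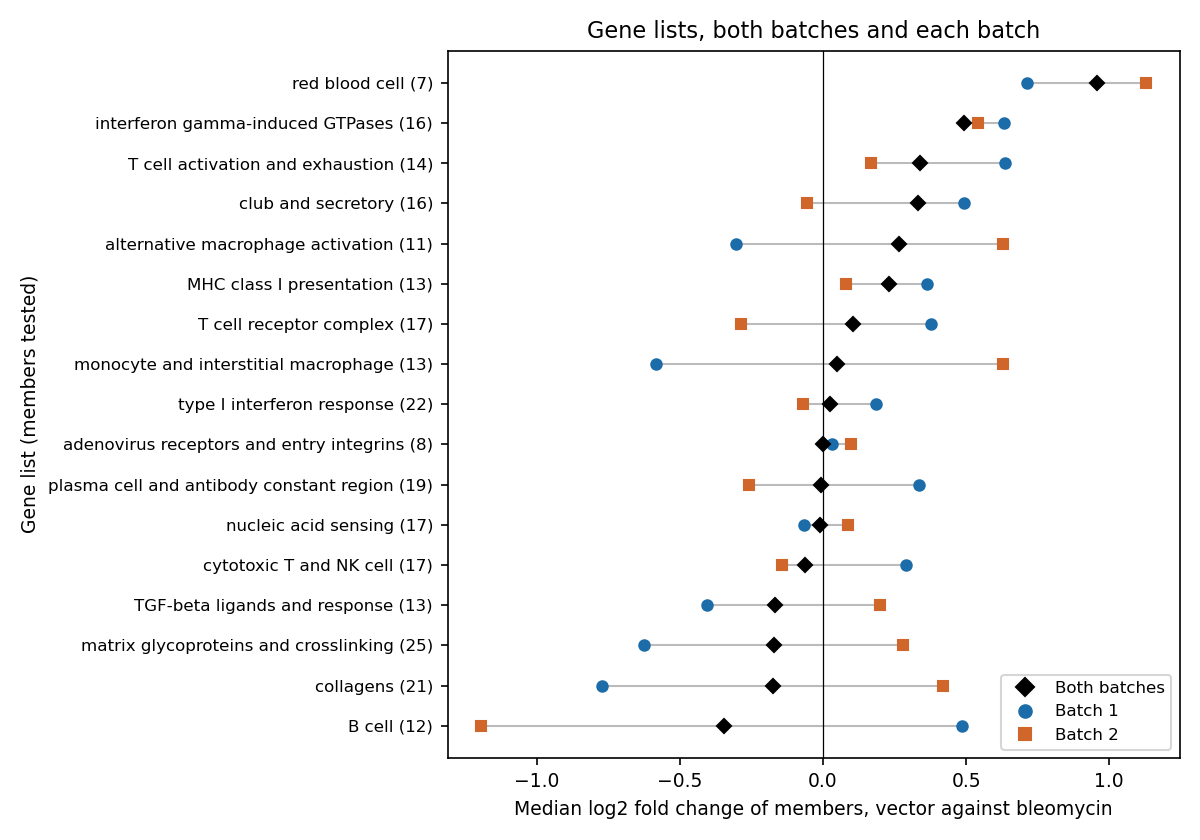
Median log2 fold change of vector against bleomycin for the members tested of 17 gene lists, with both batches together as a diamond, batch 1 as a circle and batch 2 as a square. The GTPase and red blood cell medians are positive in each batch, and collagens at -0.77 and 0.42 and B cell genes at 0.48 and -1.20 lie on opposite sides of 0.

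B cell genes had a median of -0.35, at 0.48 in batch 1 and -1.20 in batch 2. The bleomycin libraries themselves differed between batches, with a mean log2(TPM + 1) over these genes of 2.96 and 3.03 in batch 1 and 4.14 and 4.13 in batch 2. An unadjusted interaction p under 0.05 was found in 11 of 12 B cell genes, 8 of 21 collagens and 2136 of all genes (12.6%), but 0 genes passed the interaction test after adjustment (smallest limma adjusted p = 0.304). Plasma cell and antibody genes had a median of -0.01, with Ighg1 the only member at an unadjusted p under 0.05 (1 of 19). That median joined opposite signs, at 0.57 in Ad-ATP12A and -0.36 in Ad-GFP lungs, and 0.33 in batch 1 and -0.26 in batch 2. Monocyte and interstitial macrophage genes had a median of 0.05, at -0.58 in batch 1 and 0.63 in batch 2, with Ccr2 the 1 member at an unadjusted p under 0.05, lower with vector. Alternative macrophage activation genes had 0.27, at -0.31 in batch 1 and 0.63 in batch 2; at an unadjusted p under 0.05, Chia1 and Chil4 were higher and Ccl17 was lower with vector.

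**Figure D5:**
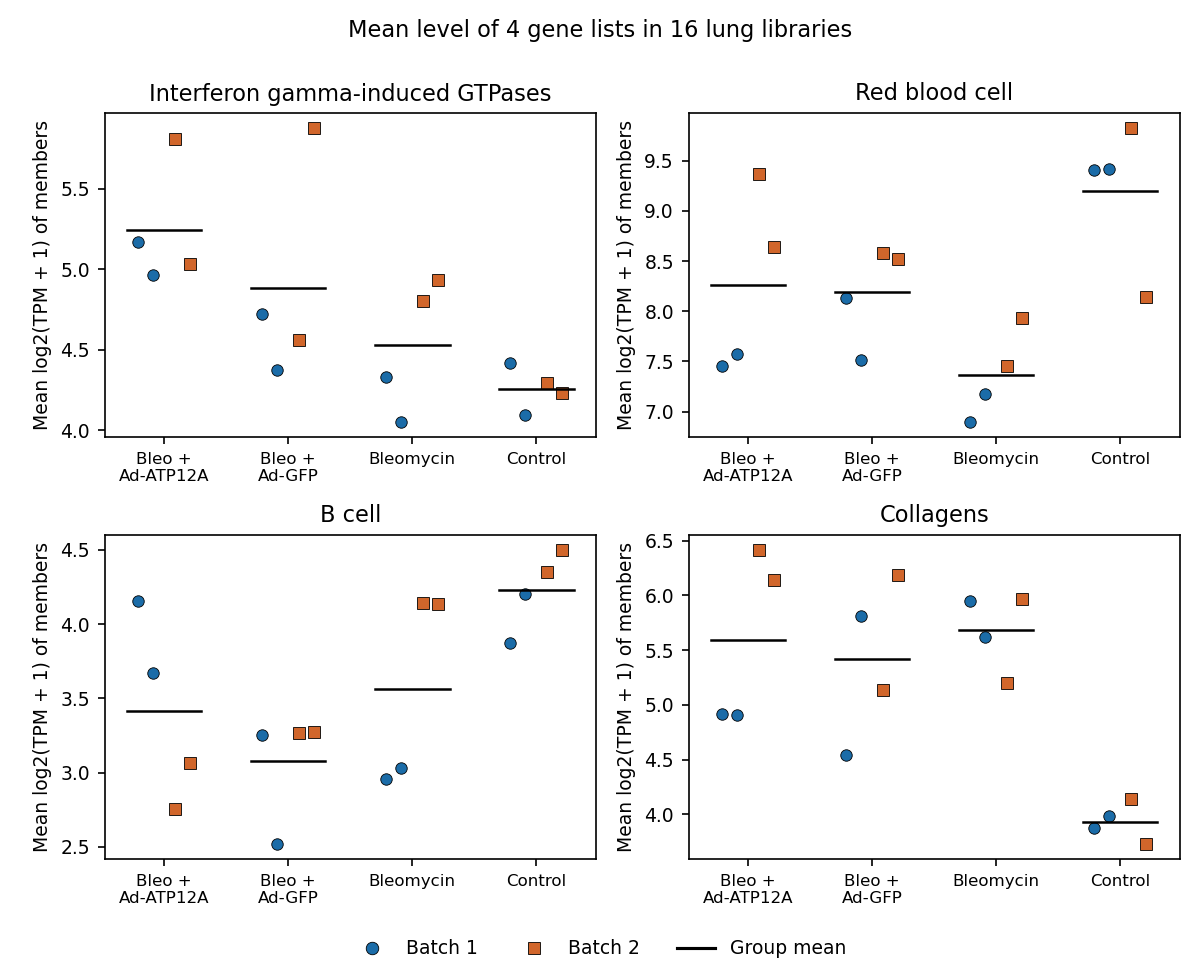
Mean log2(TPM + 1) over the members of 4 gene lists in each of 16 lung libraries, by group, with batches as symbols and the group mean as a line. Red blood cell genes lie at 6.89 to 7.94 in bleomycin lungs, where 3 vector libraries overlap them, and the B cell values of the bleomycin lungs separate by batch.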

How the data were processed

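The deposited file held log2 values made by the authors as log2(TPM + 1) for 53647 Ensembl genes in 16 libraries, per the file's name and values. The submitters' processing notes name STAR, RSEM and GRCm39 (mm39); versions and strand setting are not given in the sources used here. RNA came from a column kit, per the labels' protocols. No read counts were used, so depth is unknown and no count model was fitted.

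Symbols came from GENCODE M21 (52093 identifiers matched, 1554 did not). Genes at 1 TPM or more in 4 or more libraries entered limma 3.58.1 (R 4.3.3) with a trended prior, 4 group means and batch, fitted to all 16 libraries; p-values are two-sided and Benjamini-Hochberg adjusted over 17003 genes. The contrast was the mean of both vector groups minus bleomycin. A gene counted for both vector groups where this passed 0.05 and each group's own contrast had the same sign and an unadjusted p under 0.05. Values within a batch are differences between means of 4 vector and 2 bleomycin libraries. Fold changes on the log2(TPM + 1) scale understate those of low genes.

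Named genes were those passing for both vector groups, filled up to 10 in each direction with the smallest p among genes with one sign in both groups and both batches, and for each list up to 4 members of smallest p and its defining members, passing over predicted models, pseudogenes and antibody or T cell receptor segments other than constant regions. The members and lists were chosen with earlier results of these data known. Chosen after values of this comparison were seen were the 17 lists described of 58, the neighbours of Kng1 and Asgr2, the motifs, the sequence-sharing check, the summed kininogens, Clca1 and the other genes given only for not overlapping, and Ighg1 as a separate account. The model was tested on simulated data. Figures used Python 3.11.15 and matplotlib 3.10.9.

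Alternatives were a pseudocount of 0.1 TPM, no filter, a mean of at least 5 TPM, quantile and median-ratio scaling, the 12 bleomycin-exposed libraries alone with 3 or 2 groups, no batch term, a replicate block, an Xist term (10 TPM), leaving out libraries with Scgb1a1 under 1000 TPM, a robust prior, array weights, single batches, a threshold that also asks for an absolute log2 fold change of 1, and leaving out each of the libraries.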

Additional observations from a re-analysis of the deposited data

Results flagged for a closer look

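Outlying libraries were sought on the log2(TPM + 1) scale in 60 sets of 4 libraries, 1 gene in 1 group each. In 5 sets a library lay farther from the others than Dixon's 95% critical value allows. Chance gives about 1 in 20, which is 3 of 60. The values that follow are in TPM. Kng1 at 4.93 TPM and Kng2 at 4.48 TPM were both low in Ad-ATP12A b1r2, against 13.92 TPM or more and 9.42 TPM or more in the other Ad-ATP12A libraries. Gbp2 was high at 130.28 TPM in Ad-GFP b2r2, against 51.45 TPM or less in the other Ad-GFP libraries. Mgl2 was low at 16.14 TPM in Ad-ATP12A b2r1, against 39.23 TPM or more in the others of the group. Ccr2 was low at 37.44 TPM in Ad-ATP12A b2r2, against 46.02 TPM or more. The causes were not tested.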

How the results depend on the processing

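No gene that passed changed sign; list medians, which have no test, changed sign in 57 of 527 values, in 13 of the 17 lists. Kng1 kept its call in 29 of 33 alternatives and Asgr2 in 24 of 31; their log2 fold changes ran from 2.38 to 4.18 and from -2.25 to -1.44. The threshold that also asks for an absolute log2 fold change of 1 reused the main fit, so neither gene could lose its call there. Kng1 lost it with Kng1 and Kng2 summed (2.38), in batch 1 alone (2.90), in batch 2 alone (2.96) and without the 3 libraries low in Scgb1a1 (2.95), where fewer libraries entered. Asgr2 lost it with the 12 bleomycin-exposed libraries and 3 group means (-1.68), in batch 1 alone (-1.93), in batch 2 alone (-1.44), without the 3 libraries low in Scgb1a1 (-1.55), and without bleomycin b1r1, b1r2 or b2r2; under the filter of a mean of 5 TPM it was not tested. With each library left out in turn Kng1 ran from 2.82 to 3.12 and Asgr2 from -1.91 to -1.58.

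The pooled count of 2 became 1 at a mean of 5 TPM, 0 in batch 2 alone, 0 without the 3 libraries low in Scgb1a1, and 1 to 3 with each library left out in turn; the count for both vector groups moved in the same way, to 1, 0, 0 and 1 to 3. In batch 1 alone the count was 2, but it held neither Kng1 nor Asgr2. The Ad-GFP count of 2 became 1 with a pseudocount of 0.1 TPM, a mean of 5 TPM, quantile or median-ratio scaling or no batch term, and 0 with no filter, the 12 libraries and 3 group means, in either batch alone, or without the 3 libraries low in Scgb1a1. It was 0 to 3 with each library left out. The Ad-ATP12A count of 4 became 2 with a pseudocount of 0.1 TPM, a mean of 5 TPM, no batch term or the Xist term, 1 in batch 2 alone, 0 with the 12 libraries and 3 group means and without the 3 libraries low in Scgb1a1, and 2 to 6 with each library left out. The count of genes whose vector effect differed between batches, 0, was 0 to 21 with each library left out; it was 21 without Ad-GFP b1r2 and 1 without Ad-ATP12A b1r2. Where a value moved, the cause was not tested beyond the fewer libraries or genes entered.

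The replicate block gave 2 genes, Kng1 and Asgr2, and changed no call. The numbers are not shown to pair the libraries: over 12 pairs with the same number, deviations from group means correlated at -0.16 to 0.21, and 1 was over 0.1. Of the list medians, 514 of 527 moved by less than the SD of that list's mean level over the 4 bleomycin libraries. That SD includes the difference between batches. Of the counts of members called, 524 of 527 were unchanged, and 567 of 571 values of the 18 other named genes kept their side of the threshold. Both tallies had little room to change. In the main fit 56 of 57 lists had no member called, and the 18 genes had limma adjusted p of 0.382 or more. TPM keeps no depth, so counting error could not be given.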
